A study of Mus musculus with 6 samples.

Results

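The 8 kb interval chr11:32137001-32145000 of the mouse α-globin locus (mm9) holds HS-38 and HS-39, a pair of CTCF sites that D3839 mice lack, and the *Nprl3* sequence that separates them from the R1 enhancer. It was taken in 2 stretches. The site bins, chr11:32137001-32139000, are the 1 kb bins that contain HS-38 and HS-39, and the rest of the interval, chr11:32139001-32145000, runs from there to the R1 bin. A contact belonged to the interval if the midpoint of at least 1 of its fragments lay inside it. Over all 12 tables, 12322 of 173975 fragment pairs met this rule, and they carried 26872 of 349609 contacts, or 7.69%. Of these pairs, 4189 came from the R2 viewpoint and 8133 from the *Mpg* viewpoint. The site bins took part in 2864 pairs and the rest in 9807, so that some pairs joined both.

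Tri-C contacts were measured in primary erythroid cells of 3 wild type (WT) and 3 D3839 biological replicates, each from the viewpoint of the R2 enhancer and of the *Mpg* promoter. All samples were Ter-119+ cells, selected with magnetic beads from the spleens of female C57Bl6 mice that had been given phenylhydrazine, which destroys red cells and so fills the spleen with their precursors. D3839 mice differ from WT by short deletions in the core CTCF motifs of HS-38 and HS-39, and both groups share strain, sex and treatment, while the age of the mice is not given in the sources used here. The comparison asks what the removal of these sites does to the contacts of the sequence on and next to them. One NEBNext kit was used for the WT libraries and another for the D3839 libraries, so in every comparison below the deletion and the kit cannot be told apart.

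CTCF is a zinc finger protein that binds DNA in a fixed orientation and can halt cohesin, the ring complex that is thought to extrude chromatin loops. Pairs of CTCF sites that face each other often mark the edges of contact domains, and the loss of an edge can let contacts spread into the next domain. In Tri-C, DNA is digested with NlaIII, ligated, and enriched for a viewpoint fragment. Reads that hold the viewpoint and at least 2 further fragments, called reporters, are counted as a contact between these reporters, which met the viewpoint on the same allele.

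The whole interval lies within *Nprl3*, a gene on the minus strand (chr11:32125628-32167707) whose introns hold most α-globin enhancers and whose product is a subunit of a complex that restrains the nutrient-sensing kinase mTORC1. Upstream is used here for the side of lower coordinates, towards *Mpg*, a DNA glycosylase gene whose start lies 10.5 kb before the interval, and downstream for the side of R1, R2 and the α-globin genes. The R2 viewpoint bin begins 6.00 kb past the end of the interval. The annotation lists 10 exon records of *Nprl3* transcripts in it, and everything else in it is intron. In the mm9 sequence 49 NlaIII fragments have their midpoint in the interval. Contacts were recorded for 43 of them, 9 in the site bins and 34 in the rest, with lengths of 19 to 941 bases and a median of 138. The other 6 had none.

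The sequence of the interval was searched on both strands for the CTCF core consensus of 13 positions, allowing up to 2 mismatches, to show where in the site bins a CTCF motif lies. There were 3 matches. The first, on the plus strand at chr11:32137015-32137027 with 2 mismatches, lies in the first site bin, in an exon of a non-coding *Nprl3* transcript and in an intron of the coding ones. The second, on the minus strand at chr11:32138656-32138668 with 1 mismatch, lies in an intron in the other site bin, 1.64 kb away. The third, on the minus strand at chr11:32139273-32139285 with 2 mismatches, falls just past the site bins, in an untranslated exon of 1 *Nprl3* transcript. A match is a description and not evidence of a bound site: among 59367 windows of 2 kb on chromosome 11, 58.3% held a match with up to 2 mismatches and 13.7% a match with up to 1. The deleted bases themselves were not located here. Below, each match is shown in capitals, 5′ to 3′ on its own strand, the first within its whole NlaIII fragment and the others with flanking bases.
chr11:32136934-32137104, plus strand, around the first match: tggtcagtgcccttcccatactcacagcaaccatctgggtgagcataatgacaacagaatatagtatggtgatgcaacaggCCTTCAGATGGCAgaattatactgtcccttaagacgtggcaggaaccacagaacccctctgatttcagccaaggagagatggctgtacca
chr11:32138596-32138728, minus strand, around the second match: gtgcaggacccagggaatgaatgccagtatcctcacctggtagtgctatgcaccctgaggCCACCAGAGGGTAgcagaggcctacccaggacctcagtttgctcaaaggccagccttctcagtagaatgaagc
chr11:32139265-32139293, minus strand, around the third match: cagatgcaCCAGAAGAGGACAttggatcc

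Contacts were analysed as matrices of the 180 kb region from 32070001 to 32250000, without the viewpoint bin and its neighbours, and a contact gave 2 reporter ends. Matrices held 8651 to 16115 contacts for R2 and 10237 to 18951 for *Mpg*, with 830 to 1427 and 1236 to 3372 of them in the interval. The limit that a count of 0 allows, 3 ends, lay between 0.00792% and 0.0173% of the ends, for counting error only. Libraries of the groups differed beyond the interval: for R2 the region took 46.0 to 48.2% of the chromosome 11 contacts of WT samples and 63.1 to 66.9% of those of D3839 samples, and 32.8 to 41.2% against 49.4 to 53.8% for *Mpg*. Pairs of adjacent fragments, which share a cut site, made up 28.1 to 49.9% of the matrices. Of the interval's contacts seen from R2, they made up 31.3 to 36.3% in WT samples and 23.2 to 26.7% in D3839 samples, and from *Mpg* 33.5 to 40.6% against 24.9 to 31.2%. The part of either difference in the results below was not tested, beyond the alternatives named beside them.

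From the R2 enhancer, the interval held a slightly smaller share of reporter ends in D3839 than in WT cells, while the 8 kb stretches on both sides of it held a larger share. In WT the interval took 7.47, 7.13 and 6.92% of the ends, and in D3839 5.78, 6.64 and 5.86%. All 3 D3839 values lay below all WT values, and the means were 7.17 ± 0.278% and 6.09 ± 0.472% (SD, n = 3 each; exact two-sided permutation test, p = 0.1, the smallest that 3 against 3 samples allow). In edgeR's quasi-likelihood test across all 8 kb bins the log2 fold change was -0.23 (SE 0.082, adjusted p = 0.0312). In that test 18.2% of the 22 bins were called lower, so a bin called lower was not rare. The 8 kb before the interval rose by 0.52 on the log2 scale (edgeR, adjusted p = 0.00139) and the 8 kb after it, with R1, by 0.30 (edgeR, adjusted p = 0.000511). The stretch after it holds the R2 viewpoint bin and its neighbours, which were left out. Only its part from 32145001 to 32150000, next to the viewpoint, was counted.

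The lower R2 share of the interval is a statement about the matrix. With all chromosome 11 contacts as the library size it turned to 0.22 (edgeR, adjusted p = 0.03), a scale that moved the median of all 8 kb bins from -0.06 to 0.40. With TMM normalization it was -0.18 (edgeR, adjusted p = 0.125), and it reached -0.04 when each fragment pair was counted once (edgeR, adjusted p = 0.626). Without WT replicate 1, WT replicate 2, D3839 replicate 1 or D3839 replicate 3 the call was lost, at -0.20, -0.24, -0.20 and -0.21.

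Taken alone, neither stretch of the interval passed edgeR's threshold from R2 with the matrix total as library size. The genotypes overlapped in the plain shares of each. The site bins took 1.15, 0.826 and 1.47% of the ends in WT and 0.978, 1.13 and 0.794% in D3839, groups that overlap (log2 fold change -0.26, SE 0.205, edgeR adjusted p = 0.388; 9.09% of the 2 kb bins were called in either direction). The rest took 6.32, 6.30 and 5.44% in WT and 4.80, 5.50 and 5.07% in D3839, with 1 D3839 sample above the lowest WT sample (log2 fold change -0.23, SE 0.0907, edgeR adjusted p = 0.11; 17.2% of the 6 kb bins were called in either direction). Divided by possible fragment pairs, its shares were 5.65, 5.86 and 5.33% in WT and 4.33, 5.06 and 4.98% in D3839, without overlap (exact two-sided permutation test, p = 0.1). Without WT replicate 3 the rest was called lower, at -0.30 (edgeR, adjusted p = 0.0258), and with all chromosome 11 contacts as the library size it turned to 0.23. The value of the site bins also changed sign on that scale, to 0.20 (edgeR, adjusted p = 0.522). With the matrix total and 1 sample left out, it ran from -0.443 to -0.0337. Per kb, the site bins were a thinner part of the profile than the rest in both genotypes. The ratio of the 2 was 0.547, 0.394 and 0.813 in WT and 0.611, 0.617 and 0.470 in D3839 (exact two-sided permutation test, p = 1), so the groups overlap.

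From the *Mpg* promoter the interval rose in D3839, in both of its stretches. It took 9.15, 9.07 and 9.35% of the ends in WT and 12.6, 12.9 and 13.0% in D3839, with every D3839 sample above every WT sample. The means were 9.19 ± 0.141% and 12.8 ± 0.217% (SD, n = 3 each; exact two-sided permutation test, p = 0.1), and the log2 fold change was 0.48 (SE 0.0503, edgeR adjusted p = 0.000234). Here 22.7% of the 22 bins of 8 kb were called higher. The stretch after the interval, with R1, rose more, by 0.86 on the log2 scale, and the stretch before it, nearer to *Mpg*, less, by 0.15 (edgeR, adjusted p = 0.0046 and 0.0124).

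The rest of the interval, 6 of its 8 kb, held most of that rise, as it held most of the interval's ends in WT. It took 6.65, 6.52 and 6.72% of the ends in WT and 9.73, 9.70 and 9.44% in D3839, groups that lie far apart (log2 fold change 0.54, SE 0.0528, edgeR adjusted p = 5.81e-05; 27.6% of the 6 kb bins were called higher). The site bins took 2.50, 2.55 and 2.63% in WT and 2.87, 3.23 and 3.57% in D3839, without overlap (log2 fold change 0.33, SE 0.112, edgeR adjusted p = 0.0367; 15.9% of the 2 kb bins were called higher). The call on the site bins was lost without WT replicate 1, WT replicate 2, D3839 replicate 2 or D3839 replicate 3, at 0.31, 0.33, 0.33 and 0.25, and with the replicate block, at 0.33 (edgeR, adjusted p = 0.061). Per kb, the site bins over the rest gave ratios of 1.13, 1.18 and 1.17 in WT and 0.885, 1.00 and 1.13 in D3839 (exact two-sided permutation test, p = 0.2), and the ranges overlap.

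**Figure D1:**
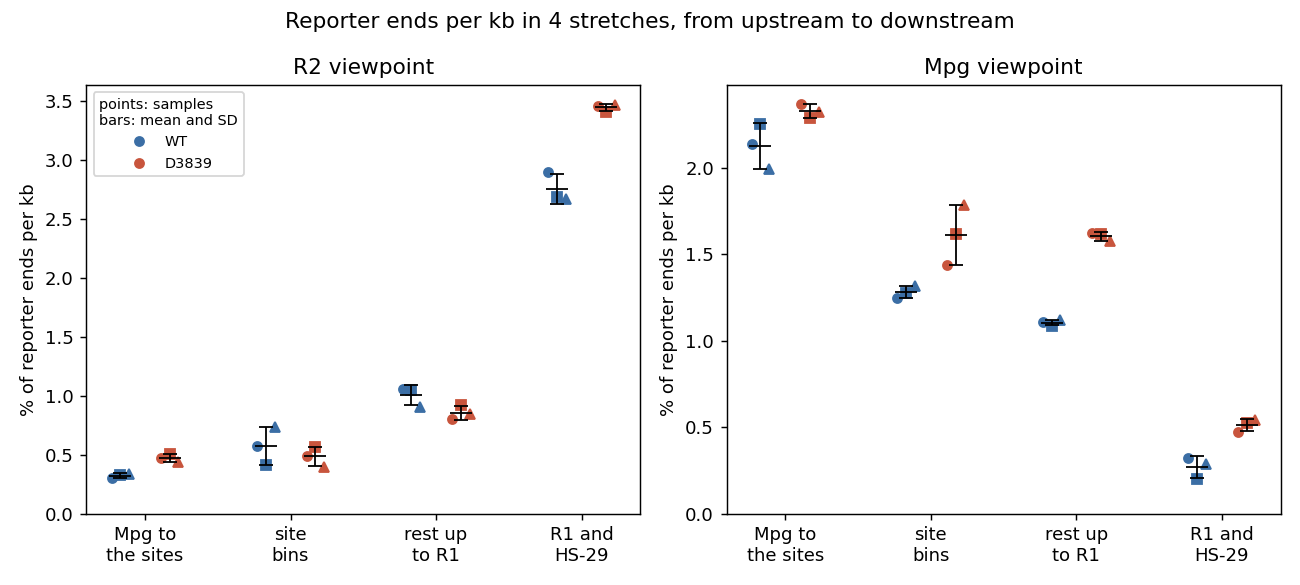
Reporter ends per kb, in percent of all ends of the matrix, in the 14 kb before the site bins, which hold *Mpg*, the site bins, the rest of the interval and the 4 kb with R1 and HS-29. Points are the 3 samples of each genotype, and bars are means with SD. From *Mpg* (right panel) the D3839 samples lie above the WT samples in all 4 stretches. There the 14 kb include the viewpoint bin and its neighbours, which were left out of the counts but not of the length. Their value per kb is therefore too low beside the other stretches, in both genotypes. From R2 (left panel) the groups overlap in both stretches of the interval, where the rest has means of 1.00 in WT and 0.854 in D3839. The direction of both stretches turns when all chromosome 11 contacts set the scale.

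The change thus differed between the viewpoints. In a model over all 12 tables with sample as a term, the D3839 effect on the interval was 0.72 higher on the log2 scale for *Mpg* than for R2 (SE 0.201, edgeR adjusted p = 0.00422; 22.7% of the 8 kb bins were called higher in this test). For the rest of the interval the difference was 0.77 (SE 0.197, edgeR adjusted p = 0.00422; 20.7% of the 6 kb bins were called higher), and with TMM normalization it fell to 0.40 (edgeR, adjusted p = 0.27). For the site bins it was 0.56 (SE 0.287, edgeR adjusted p = 0.187; 6.9% of the 2 kb bins were called in either direction), and 0.93 with TMM (edgeR, adjusted p = 0.0385). With the matrix total and 1 sample left out, the difference for the site bins ran from 0.348 to 0.77. A comparison that needs no scale set the ends in the 3 kb before the site bins against those in the 3 kb after them. For R2 this ratio was 0.440, 0.376 and 0.506 in WT and 0.811, 0.751 and 0.738 in D3839, and for *Mpg* 1.40, 1.49 and 1.35 in WT and 1.06, 1.14 and 1.21 in D3839. In WT each viewpoint had fewer ends beyond the sites than on its own side of them. In D3839 the ratio lay nearer to 1 in every sample from both viewpoints (exact two-sided permutation test, p = 0.1 for each viewpoint). The windows lie at different distances from each viewpoint, so a ratio away from 1 is not by itself a step at the sites. Ratios at other cut points are not given here.

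At 1 kb resolution no bin of the interval was called from R2. Of the 8 bins, the second of the site bins, from 32138001, was the one with the largest negative R2 value, with 0.620, 0.266 and 0.672% of the ends in WT and 0.242, 0.356 and 0.270% in D3839 (log2 fold change -0.85, SE 0.319, edgeR adjusted p = 0.159), and the groups overlap. The bin after it, from 32139001, had 1.66, 1.31 and 1.14% in WT and 0.773, 1.06 and 0.977% in D3839, without overlap (log2 fold change -0.55, SE 0.199, edgeR adjusted p = 0.159). It was the only one of the 8 R2 bins with D3839 wholly below WT, which held for 8% of all 1 kb bins. None of the 8 passed edgeR's adjusted threshold, against 2.29% of all bins in either direction, 2 had an unadjusted p under 0.05, and DESeq2 called 0. Without adjacent fragments 2 were called lower, but the share of all bins called in that fit is not given here. The first site bin, from 32137001, which holds the plus-strand match, had means of 0.631 ± 0.149% in WT and 0.679 ± 0.135% in D3839 (SD, n = 3 each).

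From *Mpg*, 7 of the 8 bins had every D3839 sample above every WT sample, against 20.5% of all 1 kb bins, and 3 of 8 passed the threshold as higher, against 10.2% of all bins. The called bins start at 32139001, 32140001 and 32144001. The bin from 32139001 went from 2.02, 2.02 and 2.04% to 3.21, 2.70 and 2.66% (log2 fold change 0.50, edgeR adjusted p = 0.00974), and the bin from 32140001 from 1.14, 1.31 and 1.09% to 1.75, 2.02 and 1.80% (0.66, edgeR adjusted p = 0.00863). The last bin before R1, from 32144001, had the largest fold change, from 0.317, 0.249 and 0.353% to 0.544, 0.782 and 0.801% (1.20, SE 0.268, edgeR adjusted p = 0.00717). It was called under all 15 alternatives tried for it, and the other 2 under 14 of 15 each. The one bin with overlapping groups was the second site bin, with 0.699, 0.586 and 0.693% in WT and 0.834, 0.686 and 1.15% in D3839. The number of called bins ran from 1, without D3839 replicate 1, to 8, with all chromosome 11 contacts as the library size, where 35.8% of all bins were called higher and the median of all bins moved from -0.12 to 0.36.

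**Figure D2:**
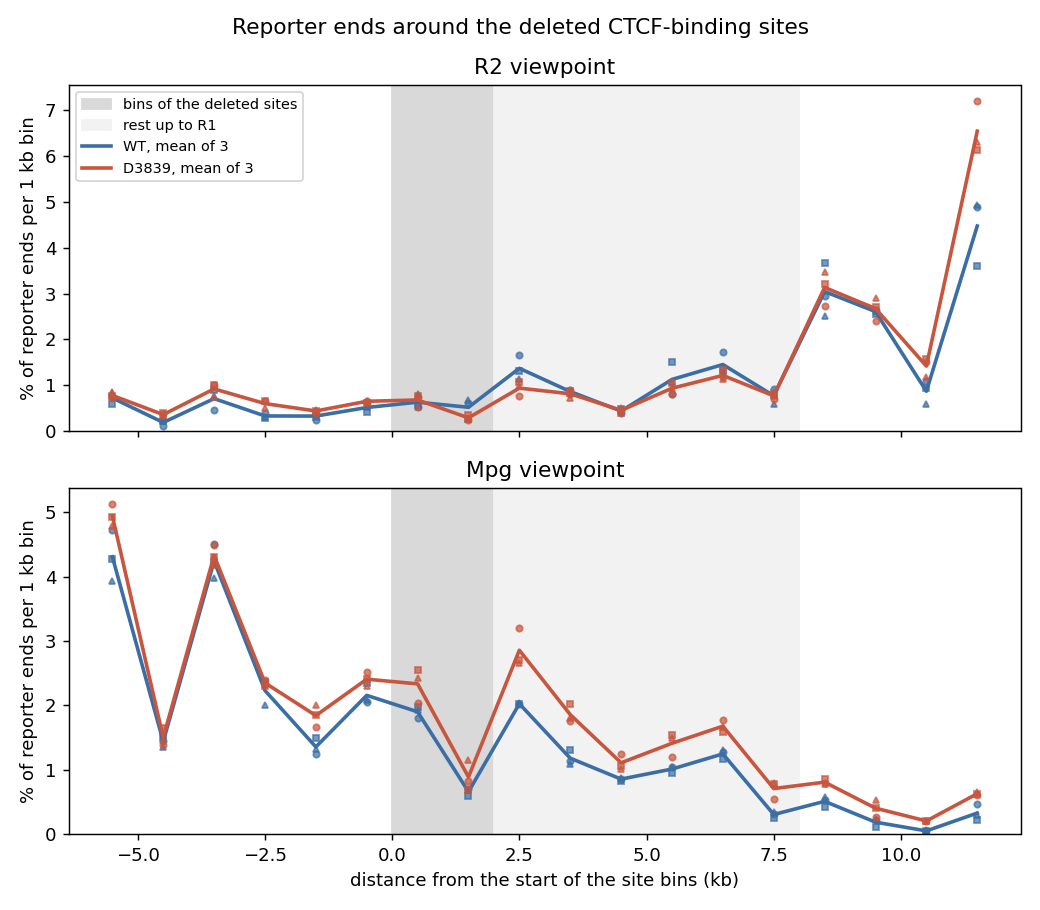
Percent of reporter ends in each 1 kb bin against the distance in kb from the start of the site bins (dark grey; the rest of the interval is light grey), for the R2 (top) and *Mpg* (bottom) viewpoints. Lines are means of 3 samples and points are the samples. The D3839 line runs above WT through the interval from *Mpg*, and from R2 it lies below WT in the bins that start 1, 2, 3, 5 and 6 kb along and almost level with it in the bin at 7 kb, none of which passed the adjusted test.

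The partners of the interval's contacts were then divided into those upstream and those downstream of it. For the rest of the interval seen from R2, 14.5, 11.1 and 18.2% of the partners outside the interval lay upstream in WT, and 29.1, 28.1 and 25.0% in D3839. The ranges are apart, and the mean share rose from 14.6 ± 3.56% to 27.4 ± 2.13% (SD, n = 3 each; exact two-sided permutation test, p = 0.1). Upstream partners were counted 60, 41 and 81 times in WT and 215, 209 and 173 times in D3839. In percent of the matrix they went from 0.577 ± 0.0891% to 1.28 ± 0.184%, whereas downstream partners stayed within the spread, at 3.44 ± 0.549% and 3.38 ± 0.243% (exact two-sided permutation test, p = 0.8). With partners anywhere on chromosome 11, the upstream share differed by 3.74 percentage points in place of 12.8 (exact two-sided permutation test, p = 0.2). From *Mpg*, the upstream share for the rest went from 51.1, 58.6 and 50.7% to 63.4, 62.0 and 62.0%, also without overlap (exact two-sided permutation test, p = 0.1). Here both sides gained in percent of the matrix, upstream from 2.32 ± 0.398% to 4.62 ± 0.397% and downstream from 2.02 ± 0.360% to 2.78 ± 0.267%.

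For the site bins the division between the sides did not separate the genotypes. The upstream share of partners outside the site bins ran from 18.0 to 30.9% over the WT samples and from 25.4 to 31.6% over the D3839 samples for R2 (exact two-sided permutation test, p = 0.3), and 51.3, 52.4 and 49.6% against 51.0, 56.4 and 53.0% from *Mpg* (p = 0.3). In percent of the matrix, the site bins gained partners on both sides from *Mpg*, upstream from 1.32, 1.16 and 1.29% to 1.66, 2.30 and 2.00% and downstream from 1.25, 1.06 and 1.31% to 1.59, 1.78 and 1.77%, each without overlap (exact two-sided permutation test, p = 0.1 for each). From R2 both sides overlapped between the genotypes, with means of 0.279 and 0.338% upstream and 1.02 and 0.827% downstream (exact two-sided permutation test, p = 0.2 and 0.4). The R2 shares of the site bins rest on few counts, 25 to 61 upstream and 56 to 159 downstream contacts per sample.

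Contacts that bridge the sites separated the genotypes from both viewpoints, in a measure added after the data were seen. Bridging contacts join the 14 kb before the site bins, a stretch that holds *Mpg*, to the rest of the interval. They were set against contacts that stay within either of these stretches, a share that does not depend on the matrix total. From R2, 38, 17 and 47 contacts bridged the sites in WT and 161, 142 and 132 in D3839, which is 5.98, 2.69 and 5.09% against 13.4, 12.4 and 10.6%. From *Mpg* there were 201, 128 and 193 in WT and 623, 649 and 547 in D3839, or 5.73, 4.14 and 4.19% against 9.71, 11.6 and 9.11%. No D3839 sample fell in the WT range. The difference of the means was 7.54 percentage points for R2 and 5.46 for *Mpg* (exact two-sided permutation test, p = 0.1 for each). Since adjacent fragments can only stay on 1 side, the share was also taken without them. It was then 15.1, 6.91 and 14.2% against 27.4, 25.0 and 22.8% for R2, and 13.7, 11.1 and 11.9% against 21.0, 23.2 and 20.1% for *Mpg*. With each fragment pair counted once it was 12.0, 6.98 and 13.6% against 25.6, 22.1 and 21.0% for R2, and 16.2, 14.6 and 19.5% against 29.3, 27.9 and 28.2% for *Mpg*.

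**Figure D3:**
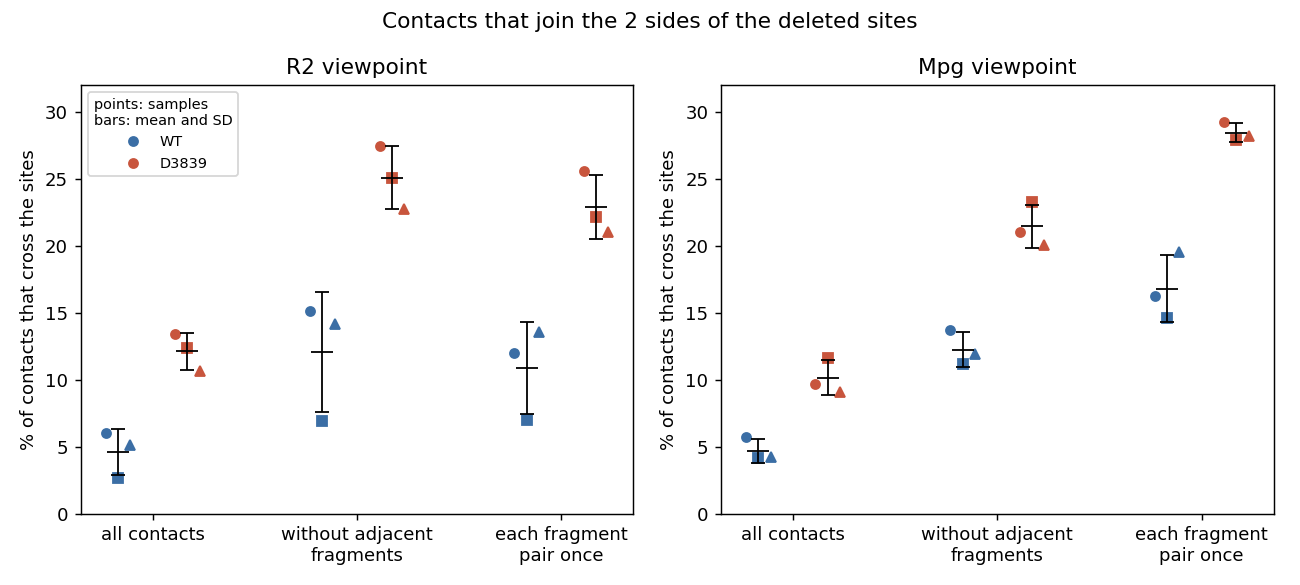
Percent of contacts that bridge the deleted sites, among contacts within and between the 14 kb upstream of them and the 6 kb downstream, for all contacts, without adjacent fragments and with each fragment pair counted once. Points are the 3 samples of each genotype, and bars are means with SD. In all 3 versions and from both viewpoints every D3839 sample lies above every WT sample.

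Pairs of 12 segments of the locus were then tested for the interval's partners. Among them, the pair of the *Mpg* side with the rest holds the same contacts as the bridging count above. From R2, 1 of 22 tested pairs with an end in the interval was called higher, against 11.8% of all segment pairs, and 1 lower, against 3.95%. The higher pair was the bridge from the *Mpg* side to the rest of the interval, which went from 0.320 ± 0.108% to 0.930 ± 0.0972% of the matrix (SD, n = 3 each; log2 fold change 1.52, SE 0.353, edgeR adjusted p = 0.00164). It was called under 14 of 15 alternatives and missed without D3839 replicate 2 (edgeR, adjusted p = 0.0568). The lower pair was made of contacts within the rest of the interval, with 3.78 ± 0.248% in WT and 2.66 ± 0.274% in D3839 (log2 fold change -0.51, SE 0.180, edgeR adjusted p = 0.0388), and it was called under 6 of 15 alternatives, where its values ran from -0.59 to -0.05. It was lost without WT replicate 1, WT replicate 2 or any 1 of the D3839 replicates. The call was also lost with TMM, with all chromosome 11 contacts as the library size, with each fragment pair counted once and without adjacent fragments.

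Contacts of the rest of the interval with the enhancers and genes downstream did not pass the test from R2. With the segment of R1 and HS-29, the next CTCF-binding site downstream, they were 0.805 ± 0.190% and 0.927 ± 0.0724% of the matrix (log2 fold change 0.21, SE 0.311), and with the segment from the R3 to the R4 enhancer 0.856 ± 0.270% and 1.06 ± 0.0487% (0.31, SE 0.301). With the adult α-globin genes, *Hba-a1* and *Hba-a2*, they were 0.821 ± 0.349% and 0.639 ± 0.122% (-0.36, SE 0.328). The site bins reached these segments with 3 to 36 contacts per sample. The SE of their log2 fold changes was 0.449 to 0.539, so only large changes could be detected at this depth. The rest was also set against the segment between R4 and *Hba-a1*, which holds *Hba-x*, the embryonic α-like globin gene. It had 42, 38 and 34 contacts in WT and 27, 40 and 37 in D3839, or 0.381 ± 0.103% and 0.224 ± 0.0532% of the matrix (-0.75, SE 0.390, edgeR adjusted p = 0.172), and the groups overlap.

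From *Mpg*, 9 of 23 tested pairs with an end in the interval were called higher, against 23.1% of all segment pairs, and 0 lower, against 8.97%, while 1 had an unadjusted p under 0.05 towards lower. DESeq2 called 2 higher and 1 lower, and edgeR with TMM normalization also 2 and 1. The shares of all segment pairs called in these fits are not given here. The bridge to the rest of the interval had the smallest p, with 1.35 ± 0.231% of the matrix in WT and 3.30 ± 0.272% in D3839 (log2 fold change 1.29, SE 0.175, edgeR adjusted p = 0.00142), and it was the only 1 of the 9 that was called under all 15 alternatives. The *Mpg* side with the site bins went from 0.908 ± 0.0835% to 1.58 ± 0.228% (0.80, SE 0.190, edgeR adjusted p = 0.0125; called under 12 of 15 alternatives, and lost with TMM, with DESeq2 and without D3839 replicate 2). The rest of the interval with the segment of R1 and HS-29 went from 28, 19 and 24 contacts to 81, 65 and 73 (1.10, SE 0.299, edgeR adjusted p = 0.0204; 10 of 15, lost with TMM, with DESeq2 and without WT replicate 2, D3839 replicate 1 or D3839 replicate 3).

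Of the other 6 called pairs, 4 joined the interval to segments further off and 2 lay within it. The rest with the segment from R3 to R4 had 16, 7 and 51 contacts in WT and 89, 94 and 101 in D3839 (log2 fold change 1.53, edgeR adjusted p = 0.0231; called under 12 of 15 alternatives), and the site bins with the same segment had 8, 6 and 7 against 21, 38 and 24 (1.46, edgeR adjusted p = 0.0358; 5 of 15). The rest with the adult α-globin genes had 71, 44 and 76 against 157, 162 and 115 (0.68, edgeR adjusted p = 0.0452; 5 of 15). On the other side, the rest with the segment of *Snrnp25*, which encodes a protein of the minor spliceosome, and *Rhbdf1*, a rhomboid-like gene, had 79, 77 and 68 against 187, 192 and 177 (0.76, edgeR adjusted p = 0.0358; 8 of 15). The last 2 were contacts of the site bins with the rest (0.61, edgeR adjusted p = 0.0358; 7 of 15) and within the rest (0.39, edgeR adjusted p = 0.0452; 5 of 15). The last of these turned to -0.05 with TMM normalization. Contacts within the site bins had 1.33 ± 0.117% of the matrix in WT and 1.38 ± 0.269% in D3839 (0.05, SE 0.194), which is within the spread.

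**Figure D4:**
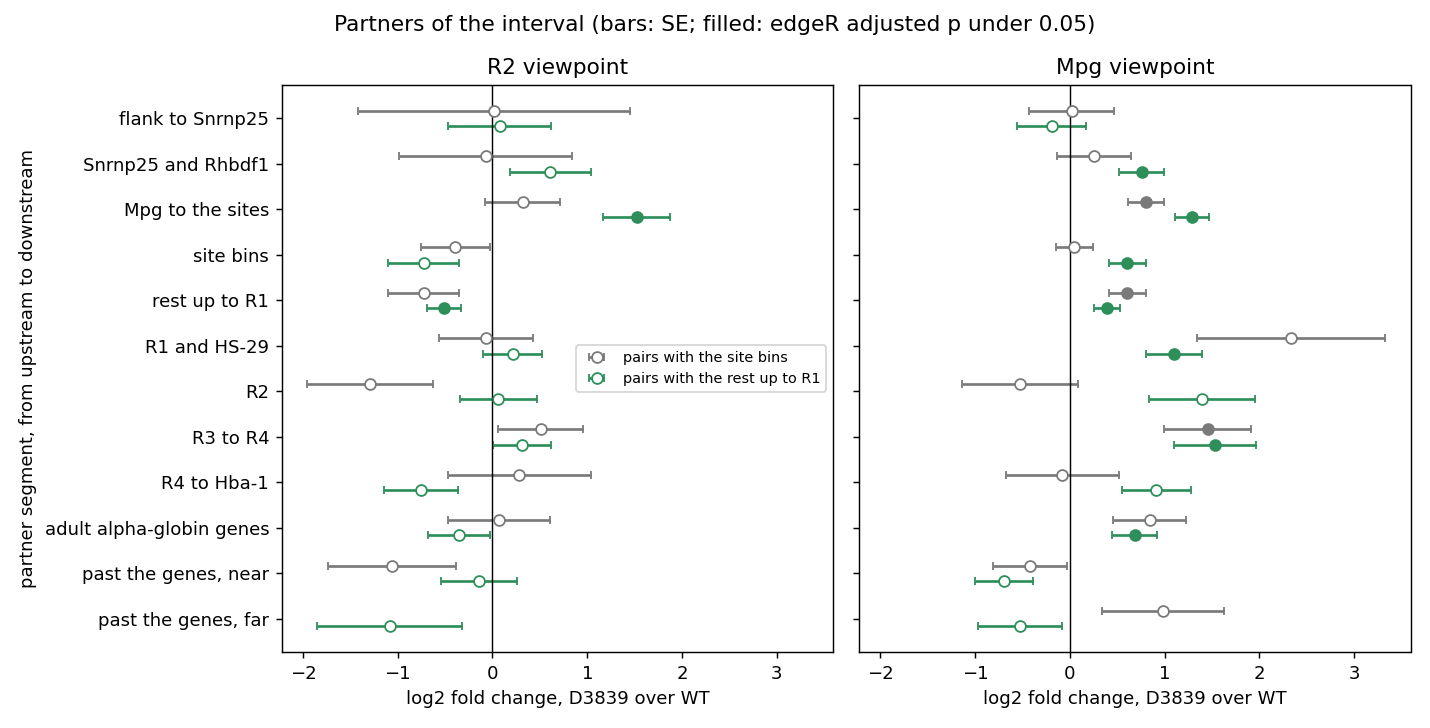
Log2 fold change of D3839 over WT, with SE, for contacts of the site bins (grey) and of the rest of the interval (green) with each of 12 segments of the locus, from upstream (top) to downstream (bottom); contacts between these stretches appear under both. Filled points have an edgeR adjusted p under 0.05. From R2 (left) the filled points are the bridge from the *Mpg* side to the rest, at 1.52, and contacts within the rest, at -0.51; from *Mpg* (right) 9 pairs are filled, all above 0 with the matrix total as scale, of which contacts within the rest turn to -0.05 with TMM.

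In pairs of 4 kb bins, 0 of the interval's 55 tested pairs passed edgeR's threshold from R2, against 0.671% of all pairs in either direction, while 4 had an unadjusted p under 0.05 towards higher and 3 towards lower, and DESeq2 called 0. From *Mpg*, 2 of 81 were called higher, against 0.472% of all pairs. The bin from 32129001, with the 3′ part of *Mpg*, and the bin from 32137001, which holds the site bins and the first 2 kb of the rest, shared 73, 36 and 43 contacts in WT and 186, 234 and 180 in D3839 (log2 fold change 1.45, SE 0.301, edgeR adjusted p = 0.00565), a call lost without D3839 replicate 2. The bins from 32133001 and 32141001, which flank the sites, shared 25, 28 and 31 in WT and 122, 125 and 100 in D3839 (1.51, SE 0.339, edgeR adjusted p = 0.00985), a call lost without WT replicate 1, D3839 replicate 1 or D3839 replicate 2.

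Single NlaIII fragments are the unit of the tables, and all 43 with contacts had at least 10 ends in both viewpoints. From R2, 0 of 43 passed edgeR's threshold, against 0.13% of all 772 tested fragments in either direction. Of the 43, 29 had a fold change below 0 and 5 an unadjusted p under 0.05, all lower, and DESeq2 called 1 lower. The median log2 fold change was -0.169 over the 43 and 0.0145 over all 772. The site-bin fragment with the smallest R2 p is an intronic one of 88 bases next to the fragment of the minus-strand match, with 48, 13 and 81 ends in WT and 23, 38 and 19 in D3839 (log2 fold change -1.32, SE 0.472, edgeR adjusted p = 0.253). It is shown as the fragment with the largest negative R2 value in the site bins, chosen after its values were seen.
chr11:32138889-32138976, plus strand: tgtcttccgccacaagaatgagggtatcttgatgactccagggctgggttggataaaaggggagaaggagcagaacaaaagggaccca

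From *Mpg*, 7 of 43 fragments were called higher and 0 lower, against 1.6% of all 875 tested fragments called higher, and 40 of 43 had a fold change above 0. Of the 16 with an unadjusted p under 0.05 none was lower, and DESeq2 called 0 lower. The median log2 fold change was 0.432 over the 43 and -0.069 over all 875. Leaving out any 1 sample other than WT replicate 3 brought the calls to 0. Of the fragments with a CTCF match, the one with the plus-strand match, the first of the interval, had 100, 97 and 177 ends in WT and 181, 220 and 173 in D3839, or 0.473 ± 0.0708% and 0.521 ± 0.0736% of all ends, with overlapping groups (log2 fold change 0.14, SE 0.186, edgeR adjusted p = 0.68). The one with the first minus-strand match, 881 bases long, had 46, 25 and 52 against 105, 108 and 174, with no overlap in percent of the ends (1.17, SE 0.292, edgeR adjusted p = 0.0382). The one with the last match, just past the site bins, had 27, 18 and 22 against 96, 118 and 55 (1.48, SE 0.383, edgeR adjusted p = 0.0382). From R2 the same fragments had fold changes of 0.28 (SE 0.415), -0.44 (SE 0.362) and 0.10 (SE 0.481), and their groups overlap.

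Of the rest of the interval, the fragment with the highest mean share of the ends over the 6 samples from *Mpg*, chr11:32139010-32139115, had 85, 82 and 146 ends in WT and 185, 130 and 162 in D3839, with overlapping shares (log2 fold change 0.12, SE 0.202). The next, chr11:32139702-32139944, which covers most of an *Nprl3* exon, had 73, 67 and 91 against 208, 176 and 187 (0.79, SE 0.194, edgeR adjusted p = 0.0382). From R2 the leading fragments lay nearer to R1. The first of them, chr11:32143171-32143326, had 82, 46 and 71 ends in WT and 99, 84 and 94 in D3839 (-0.13, SE 0.271), and none of the leading 3 differed beyond its SE.

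From *Mpg* the smallest p of the interval's fragments belonged to chr11:32143367-32144172, an intronic one of 806 bases. It had 34, 34 and 43 ends in WT and 115, 135 and 105 in D3839 (log2 fold change 1.16, SE 0.279, edgeR adjusted p = 0.0382). Of the fragments called higher from *Mpg*, those that are wholly intronic and short are shown, a choice made after the values were seen. The first, of 224 bases, had 58, 47 and 76 ends in WT and 160, 167 and 138 in D3839 (log2 fold change 0.86, SE 0.222, edgeR adjusted p = 0.0382). The second, of 206 bases, is the last fragment of the interval and rose by 1.37 on the log2 scale (edgeR, adjusted p = 0.0422). Both lie in the rest of the interval. From R2 they had values of 0.36 and -0.07, which did not pass.
chr11:32140531-32140754, plus strand: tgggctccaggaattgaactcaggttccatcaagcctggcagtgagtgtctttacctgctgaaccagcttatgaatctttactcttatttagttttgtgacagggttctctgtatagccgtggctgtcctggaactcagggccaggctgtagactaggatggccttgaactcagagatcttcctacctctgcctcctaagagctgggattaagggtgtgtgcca
chr11:32144808-32145013, plus strand: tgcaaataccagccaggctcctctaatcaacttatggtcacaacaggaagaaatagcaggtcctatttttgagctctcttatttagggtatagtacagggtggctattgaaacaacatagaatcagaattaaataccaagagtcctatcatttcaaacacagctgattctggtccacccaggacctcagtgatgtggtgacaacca

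**Figure D5:**
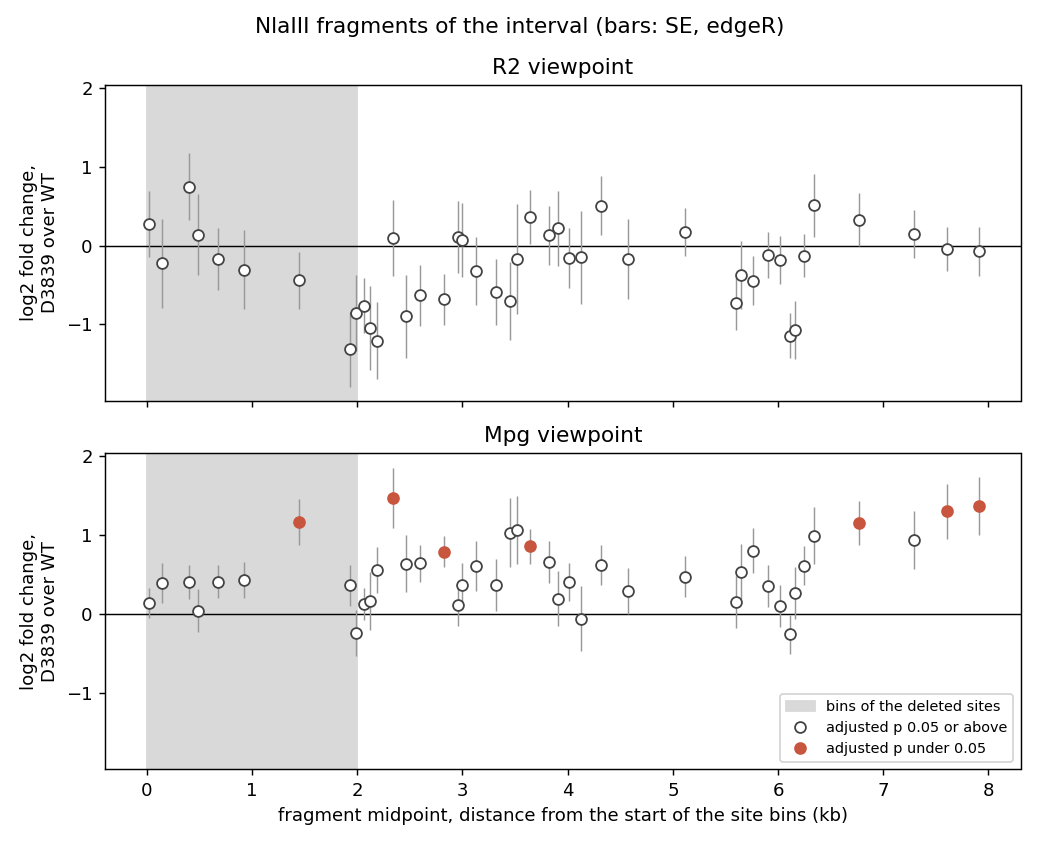
Log2 fold change of D3839 over WT with SE (edgeR) for each of the 43 NlaIII fragments of the interval against the distance of its midpoint in kb from the start of the site bins (grey), for R2 (top) and *Mpg* (bottom). From *Mpg* 40 of 43 points lie above 0 and 7 are filled for an adjusted p under 0.05; from R2 29 of 43 lie below 0 with the matrix total as scale, and none is filled.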

How the data were processed

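Tri-C libraries of 3 WT and 3 D3839 samples were analysed from the R2 and *Mpg* viewpoints. Each of the 12 deposited tables lists NlaIII fragment pairs of mm9 chromosome 11 with the authors' counts of unique contacts, which are not normalized. By the study's methods they are output of the CCseqBasic pipeline and a further script. A contact needs at least 2 reporters in a read, so reads with 1 are not counted, each PCR product counts once, and fragments that other probes of the same capture pulled down were taken out. The submitters' processing notes also name Trim Galore and Bowtie. All 88602 fragments named in the tables matched NlaIII sites of the mm9 sequence, and gene models are those of GENCODE for the same build.

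Contacts were kept if both midpoints lay in the 180 kb region and outside the bin of the viewpoint and its 2 neighbours, found from the stretch without reporters in the tables. Ends were summed on grids of 8, 6, 2 and 1 kb laid so that each stretch filled whole bins, and contacts in pairs of 4 kb bins and of 12 segments. The quasi-likelihood test of edgeR 4.0.16 (R 4.3.3) was run on all features that reached 10 counts in the sum of the 6 samples, with the matrix total as library size and p-values adjusted by Benjamini-Hochberg over each fit, at a threshold of 0.05. Shares were compared by exact two-sided permutation tests (scipy 1.17.1, numpy 2.4.6, python 3.11.15). Standard errors are those implied by the edgeR statistic. Counting floors cover counting error only, since contacts of 1 read are not independent. The fit was tested on simulated counts. Beside counts of called features, the share of all features is given for the adjusted edgeR test with the matrix total, and in part for the chromosome 11 scale. For unadjusted p-values and other fits it is not given.

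The list for naming held every 1 kb bin, every site-bin fragment past the filter, fragments with a CTCF match and the 3 other fragments with the most ends. It also held up to 3 features in each direction with the smallest p among those called. Only part of this list is printed above. The fragments without a CTCF match whose sequence is shown were picked after the values were seen. The interval, stretches and lists were chosen with earlier results of these data known. Bridging contacts and the last 6 of the called segment pairs were added after the values were seen. The ratio of ends before and after the site bins was also not in the initial plan. Alternatives were TMM, DESeq2 1.42.0, a chromosome 11 library size, other count filters, single counting of fragment pairs, adjacent fragments or more viewpoint bins left out, division by possible fragment pairs, wider site bins, partners anywhere on the chromosome, the replicate block and each sample left out. The Capture-C experiments were not analysed here.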

Additional observations from a re-analysis of the deposited data

Results flagged for a closer look

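The difference between D3839 and WT libraries in the interval differed between the viewpoints in a test of the difference itself, the viewpoint by genotype term of edgeR over all 12 tables. For the whole interval the *Mpg* effect exceeded the R2 effect by 0.72 on the log2 scale, from 0.48 for *Mpg* and -0.23 for R2. For the rest of the interval up to R1 it exceeded it by 0.768, from 0.54 and -0.23. With TMM normalization the difference for the rest did not pass the threshold. Both R2 values turned positive with all chromosome 11 contacts as the library size. No group held the 4 samples needed to look for a sample far from the others.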

How the results depend on the processing

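Of 417 alternatives to the comparisons, 337 kept direction and side of the threshold or moved by less than the spread, 18 lost a call, 2 gained one, 58 moved and 2 turned with a call on at least 1 scale. The cause of these changes was not tested. Where a count of called features below has no share beside it, the share of all features called in the same fit is not given here. Such a count cannot be read as particular to the interval. R2 ends of the interval (-0.235) were -0.183 with TMM, -0.0378 with each fragment pair counted once, -0.132 without adjacent fragments, -0.212 with 2 more viewpoint bins out and -0.30 to -0.198 with 1 sample left out, and turned to 0.223 on the chromosome 11 scale. R2 ends of the rest turned to 0.227 on that scale and were -0.30 to -0.187 with 1 sample left out, and those of the site bins changed sign there, with no call, to 0.196. With 1 sample left out, R2 ends of the site bins were -0.443 to -0.0337. Division by possible fragment pairs gave -0.46 for R2 ends of the site bins, 0.418 for *Mpg* ends of the interval and 0.471 for the rest. *Mpg* ends of the site bins were 0.253 to 0.409 with 1 sample left out. The viewpoint difference was 0.684 to 0.778 for the interval and 0.715 to 0.849 for the rest with 1 sample left out, 0.401 for the rest and 0.93 for the site bins with TMM, and 0.572 for the rest with pairs counted once. For the site bins it was 0.348 to 0.77 with 1 sample left out. Called R2 features of the interval numbered 2 lower 1 kb bins without adjacent fragments and 0 to 1 with 1 sample left out, 2 higher 4 kb pairs (against 4.25% of all pairs) and 3 higher segment pairs (against 31.6% of all) on the chromosome 11 scale, 0 to 1 higher and 0 to 1 lower segment pairs with 1 sample left out, 0 lower segment pairs with TMM, on that scale, with pairs counted once or without adjacent fragments, and 1 lower fragment with DESeq2 or without adjacent fragments. Called higher *Mpg* 1 kb bins numbered 6 with TMM, 5 with DESeq2, 8 on the chromosome 11 scale (against 35.8% of all bins), 7 with pairs counted once and 1 to 5 with 1 sample left out. Higher 4 kb pairs numbered 13 on that scale (against 5.51% of all pairs), 7 with pairs counted once and 0 to 3 with 1 sample left out. Higher segment pairs numbered 2 with TMM or DESeq2, 5 without adjacent fragments and 2 to 8 with 1 sample left out, and lower ones 1 with TMM, DESeq2 or without adjacent fragments, 2 with pairs counted once and 0 to 1 with 1 sample left out. Higher fragments numbered 24 on the chromosome 11 scale (against 11.8% of all fragments), 2 without adjacent fragments and 0 to 7 with 1 sample left out. The upstream share for the rest differed by 3.74 points from R2 with partners anywhere on the chromosome. The bridging share differed by 12.0 points (R2) and 11.7 (*Mpg*) with pairs counted once, and by 13.0 and 9.21 without adjacent fragments. Among single features, *Mpg* contacts within the rest turned to -0.0486 with TMM.

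Samples of the same replicate number had correlations over 2 kb bins of 0.184, -0.00415 and -0.0352 for R2 and 0.246, -0.0507 and -0.165 for *Mpg*. The value of 0.246, for replicate 1, was the highest of all WT with D3839 pairs from *Mpg*. With 3 samples a group, these values cannot show whether samples of the same number share a batch. With the replicate block, *Mpg* ends of the site bins were 0.327 (edgeR, adjusted p = 0.061), 2 R2 bin pairs were called lower and 1 *Mpg* segment pair lower. The shares of all pairs called with the block are not given here. Calls lost with it were the *Mpg* contacts of the rest with the adult α-globin genes, those within the rest and those of the site bins with the rest. Not every sample correlated best with its own number in either viewpoint.

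Depth limited the smallest features most: the site bins held 143 to 382 R2 ends per sample, and single pairs often fewer than 10 contacts. With 3 samples a group, 0.1 is the smallest permutation p. The deletion and the library kit cannot be told apart.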
